A study of Mus musculus with 9 samples.

Results

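The beta-defensin genes of the mouse were taken as every gene of the deposited table whose symbol starts with Defb and a digit, together with Spag11a and Spag11b, which code for beta-defensin-related epididymal peptides. The choice rested on the symbol alone and gave 43 genes of 32195, of which 41 carried a Defb symbol and 1 of those, Defb44-ps, a pseudogene symbol. They were followed in single-cell RNA sequencing of the epididymis, the coiled duct in which sperm mature, cut into its first stretch (caput), middle (corpus) and last stretch (cauda). All 9 libraries came from untreated C57BL/6 males (C57BL/6J in the study's methods), and no altered allele was named for any of them. Each segment was measured in 3 pools of 5 mice, 1 pool at postnatal day 42 (P42), the age of the first wave of sperm, and 2 pools at postnatal day 56 (P56, replicates 1 and 2). Cells were loaded on a microwell chip after lysis of red blood cells, and sperm were not removed. Because mice were pooled, the spread between libraries is a spread between pools and not between single animals.

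Beta-defensins are short secreted peptides that fold around pairs of bonded cysteines and carry a positive charge. Several kill bacteria by damaging their membranes, and many others are made almost only in the male tract, where they bind to the sperm surface during passage through the duct. Males of a mouse line that lacks a run of the chromosome 8 genes are sterile, with sperm of low motility. In the epididymis the principal cells secrete most of the protein of the lumen, clear and narrow cells acidify it, and basal cells lie against the basement membrane.

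The table held 44869 cell barcodes, 4971 to 4997 per library, and 307987941 UMIs (unique molecular identifiers, each counted as 1 captured mRNA molecule). The limits on cells kept 42087 of them with 265307692 UMIs, from 19248247 in the P42 cauda library to 40879086 in the cauda library of P56 replicate 2. Levels are given below as CPM, the UMIs of a gene scaled to the summed UMIs of its library, in the order P42, P56 replicate 1, P56 replicate 2. UMIs count molecules and were not divided by transcript length. The P42 libraries stood apart from those of P56, that of the cauda most: its summed epithelial markers (Epcam, Krt8 and 5 others) reached 663 CPM against 2765 and 2982 CPM at P56, its 9 myoid and fibroblast markers 41817 CPM against 1627 and 1036, and its 10 macrophage markers 4101 CPM against 135 and 200.4. In CPM over all cells, fewer cells of a type and less RNA per cell cannot be told apart, so the values were also taken within marker-gated cells. Pairs of libraries shared 2 to 35 barcodes, with the pairs of P42 libraries highest (35, 35 and 26).

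The 6 genes on which most of the results below turn are shown by their coding sequences, so that their cysteine codons and the differences between the genes can be seen. Each sequence is read 5′ to 3′ from the GENCODE transcript, and the in-frame cysteine codons (TGT or TGC) are in capitals. Of the 339 coding bases of Spag11b the last 162 are shown, from codon 60 on, and the other 5 sequences are whole. Spag11b and Defb20 led the caput, Defb28 the corpus, Defb2 and Defb28 the cauda, and Defb1 and Defb50 were higher in clear and narrow cells than in principal cells of all 3 segments. Spag11b has 6 cysteine codons, the first of them at codon 80 of 113, and Defb2 has 9.
Spag11b: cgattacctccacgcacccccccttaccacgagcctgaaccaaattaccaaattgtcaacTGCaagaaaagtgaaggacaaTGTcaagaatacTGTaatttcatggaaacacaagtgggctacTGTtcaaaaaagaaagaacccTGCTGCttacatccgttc
Defb20: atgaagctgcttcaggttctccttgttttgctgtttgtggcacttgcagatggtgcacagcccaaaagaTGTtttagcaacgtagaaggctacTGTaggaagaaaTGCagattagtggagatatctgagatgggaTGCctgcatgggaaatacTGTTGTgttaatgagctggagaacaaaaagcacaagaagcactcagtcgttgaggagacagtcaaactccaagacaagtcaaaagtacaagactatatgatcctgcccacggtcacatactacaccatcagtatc
Defb28: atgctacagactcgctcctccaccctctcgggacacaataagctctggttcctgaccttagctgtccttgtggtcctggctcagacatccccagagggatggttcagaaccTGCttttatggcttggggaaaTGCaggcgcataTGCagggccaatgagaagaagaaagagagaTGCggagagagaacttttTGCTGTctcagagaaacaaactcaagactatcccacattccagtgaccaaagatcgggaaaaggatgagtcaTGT
Defb2: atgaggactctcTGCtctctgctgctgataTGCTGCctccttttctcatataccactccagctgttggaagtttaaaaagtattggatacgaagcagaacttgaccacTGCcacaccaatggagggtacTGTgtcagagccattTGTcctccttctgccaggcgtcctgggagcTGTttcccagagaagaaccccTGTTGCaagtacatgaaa
Defb1: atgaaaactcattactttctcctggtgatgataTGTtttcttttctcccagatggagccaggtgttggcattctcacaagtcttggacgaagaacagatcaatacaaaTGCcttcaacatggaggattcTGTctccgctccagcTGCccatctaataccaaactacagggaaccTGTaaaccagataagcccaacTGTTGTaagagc
Defb50: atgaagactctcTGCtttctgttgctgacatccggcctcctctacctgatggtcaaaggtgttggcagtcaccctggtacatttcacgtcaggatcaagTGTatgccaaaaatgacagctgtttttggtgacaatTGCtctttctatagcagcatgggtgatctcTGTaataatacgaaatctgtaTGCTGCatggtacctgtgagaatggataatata

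On GRCm38 (GENCODE M21 annotation) Spag11b lay at chr8:19140759-19143010, Defb20 at chr2:152477063-152479934, Defb28 at chr2:152518255-152521447, Defb2 at chr8:21839926-21843482, Defb1 at chr8:21776599-21795185 and Defb50 at chr8:21823539-21831296, all on the plus strand. The 43 genes formed 5 clusters. These were 3 genes on chromosome 1 (18210053 to 18265138), 11 on chromosome 2 (152459055 to 152623053), 14 and 10 in separate stretches of chromosome 8 (18974940 to 19447606 and 20892669 to 21948850) and 5 on chromosome 14 (62977524 to 63058149). A coding sequence was read for 42 genes, 180 to 558 bases long, and 38 of them held cysteine codons at the spacing of the 6-cysteine beta-defensin motif; Defb22, Defb8, Defb33 and Defb50 did not.

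The coding sequences of most members were far apart. Over 861 pairs of coding sequences the median identity was 47.9%, and the nearest relative of a gene was 46.8 to 91.0% identical, with a median of 57.3%. Defb15 and Defb34 (91.0%), Defb3 and Defb5 (85.4%) and Defb10 and Defb11 (84.4%) were the pairs at 80% or more. Over whole transcripts, which reach beyond the coding part, Defb10 shared an unbroken run of 83 bases with Defb11 and one of that length with Defb2. Read in the same way, Defb9 and Defb2 shared a run of 67 bases and Defb12 and Defb35 one of 62. Counts of these genes are uncertain to the extent that reads from the shared stretches were split between them, and the assignment of reads was not tested. Spag11a and Spag11b share exon bases with Gm45826 on the same strand and Defb15 with Gm36879 on the other strand, and the strand setting of the counting was not given in the sources used here.

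The duct spent its largest share of message on these genes in the caput. Members held 5.94, 9.91 and 7.49% of all UMIs in the caput libraries (mean 7.78 ± 2.00, SD, n = 3), 2.06, 3.38 and 2.77% in the corpus (2.74 ± 0.661) and 0.805, 3.10 and 2.63% in the cauda (2.18 ± 1.21). Every caput library was above every corpus and cauda library, while corpus and cauda overlapped. In the caput, Spag11b alone gave 27.3% of member UMIs and the first 8 genes 91.5%; in the cauda, Defb28 gave 28.8% and the first 8 genes 95.9%. The corpus was more evenly divided, with 79.5% in its first 8 genes, led by Defb28 at 28.6%. Members stood high among all genes: Spag11b ranked 3 and Defb20 ranked 4 in each of the 3 caput libraries, and 8 or 9 members were among the 100 most counted genes there, against 6 to 9 in the corpus and 2 to 5 in the cauda.

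**Figure D1:**
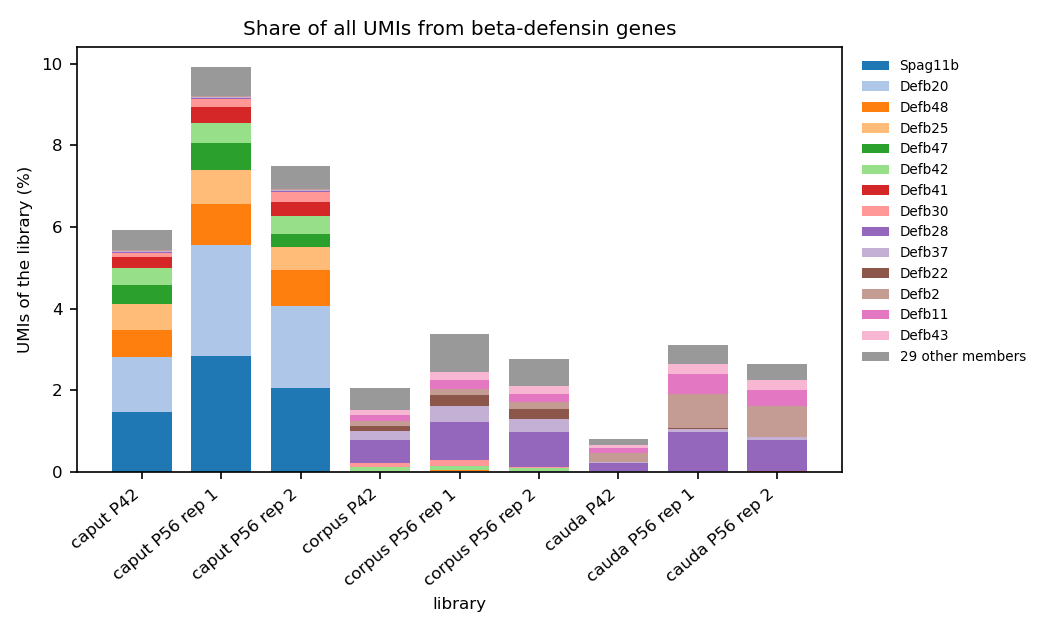
Share of all UMIs of a library (vertical axis, percent) that came from beta-defensin genes, for the 3 caput, 3 corpus and 3 cauda libraries (bars, split by leading gene). The caput bars reach 5.94 to 9.91% and are led by Spag11b and Defb20. The corpus and cauda bars stay at or below 3.38% and are led by Defb28, except that of the P42 cauda library, where Defb2 leads.

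The comparison between segments asked which members mark which stretch of the duct, with the pool as a block. Of the 40 members tested, 37 differed between segments in edgeR's quasi-likelihood test (17 highest in caput, 12 in corpus, 8 in cauda), beside 24.8% of all genes tested (11.3, 7.32 and 6.11% by highest segment). Defb4, Defb5 and Defb8 were too rare to test, and Defb1, Defb3 and Defb35 did not pass. Counting all 43 by mean level, 19 were highest in caput, 14 in corpus and 10 in cauda, and for 27 of them (17, 7 and 3) each of the 3 libraries of that segment was above the other 6. The highest segment was taken from the same values, and this count was not made over all genes. Between pairs of segments, 30 members differed between corpus and caput (15 higher and 15 lower in corpus, beside 16.4% of genes, 8.69% higher and 7.7% lower), 34 between cauda and caput (12 higher and 22 lower in cauda, beside 20.5%, 8.76% higher and 11.8% lower) and 18 between cauda and corpus (1 higher and 17 lower in cauda, beside 8.24%, 2.46% higher and 5.77% lower). The call count rested partly on P56 replicate 1: without that pool 24 members passed, 15, 6 and 3 by highest segment. The share of all genes that passed without it was not taken. A loss particular to the members therefore cannot be told from a general one.

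The leading caput members were low in the other segments. Spag11b, a gene of sperm-binding epididymal peptides, reached 14746, 28458 and 20435 CPM in caput (mean 21213 ± 6889, SD, n = 3), 38.1, 39.2 and 10.6 CPM in corpus and 51.0, 14.3 and 15.2 CPM in cauda. The caput libraries were 724-fold above the next segment by their means and did not overlap with any other library (log2 fold change -9.55 ± 0.75 (SE), adjusted p = 0.000403 for corpus against caput). Defb20 reached 13480.5, 27146 and 20084 CPM in caput, 106, 222 and 152 in corpus and 51.2, 39.5 and 32.7 in cauda, 126-fold above the next segment (log2 fold change -6.80 ± 0.43 (SE), adjusted p = 0.000201). The low corpus levels of Defb20 were still above those of cauda in all 3 pools (cauda against corpus log2 fold change -1.83 ± 0.35 (SE), adjusted p = 0.0227).

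Defb48 and Defb25 followed. Defb48 had 6629, 10100.1 and 8994 CPM in caput, and its 6 libraries from corpus and cauda lay between 33.1 and 41.4 CPM. Defb25 had 6292, 8369 and 5598 CPM in caput, 17.4, 12.5 and 3.39 in corpus and 20.3, 3.77 and 3.87 in cauda. Defb47 had 4550.3, 6442 and 3208 CPM in caput and at most 14.7 CPM in any other library. These 3 genes showed a step of 228, 608 and 439-fold between caput and the next segment, with no overlap of libraries (corpus against caput, log2 fold changes -7.66, -9.40 and -8.88, adjusted p = 8.11e-05, 0.000340 and 0.000386). Defb41, whose promoter has been used to drive Cre in caput principal cells, had 2727, 3981 and 3238 CPM in caput, 9.48, 15.7 and 3.43 in corpus and 7.64, 2.29 and 2.13 in cauda (348-fold; log2 fold change -8.47 ± 0.66 (SE), adjusted p = 0.000388). Defb18 had 1968, 2160.5 and 1128 CPM in caput and at most 21.5 CPM elsewhere, its 3 cauda libraries lying above its 3 corpus libraries without that difference passing (log2 fold change 1.93 ± 0.52 (SE), adjusted p = 0.0640). With Defb45, 8 caput members and the corpus gene Defb22 were more than 100-fold above the next segment, a count that was not made over all genes.

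A second group was shared between caput and corpus. Defb42 was lower in each successive segment, with 4223, 4960.1 and 4453 CPM in caput, 1044, 1162 and 697 in corpus and 112, 129 and 116 in cauda, and the segments did not overlap (log2 fold change -2.08 ± 0.22 (SE), adjusted p = 0.00128 for corpus against caput, log2 fold change -2.92 ± 0.23 (SE), adjusted p = 0.00197 for cauda against corpus). Defb30 had 1066, 2012 and 2449 CPM in caput and 797, 1265 and 309 in corpus, which overlapped (log2 fold change -1.15 ± 0.48 (SE), adjusted p = 0.140), but only 7.38, 4.27 and 4.65 CPM in cauda (log2 fold change -8.15 ± 0.64 (SE), adjusted p = 0.000355 against caput). Spag11a was at its own lower level, 73.3, 203 and 185 CPM in caput, 138, 279 and 63.3 in corpus and 16.5, 21.8 and 13.7 in cauda, so that caput and corpus overlapped and cauda lay below both (log2 fold change -2.85 ± 0.40 (SE), adjusted p = 0.00332 against caput). Spag11a thus did not have the step of its neighbour Spag11b between caput and corpus (log2 fold change 0.13 ± 0.38 (SE), adjusted p = 0.842), a difference between the 2 genes that was not itself tested. In corpus, Defb42, Defb30 and Spag11a were each highest in P56 replicate 1 and lowest in P56 replicate 2. The cause of this difference between the 2 P56 corpus libraries was not tested.

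The corpus was set apart by Defb22, Defb26, Defb23 and the Defb37 to Defb39 group. Defb22, the counterpart of a primate gene whose product coats sperm, had 1301, 2776 and 2561 CPM in corpus, 1.28, 2.9996 and 11.4 in caput and 3.95, 33.5 and 2.05 in cauda. The corpus libraries were 168-fold above the next segment by mean, and the highest of the others, the cauda library of P56 replicate 1, stood far from its 2 fellow cauda libraries (corpus against caput log2 fold change 9.12 ± 1.26 (SE), adjusted p = 0.00337; cauda against corpus log2 fold change -7.73 ± 1.20 (SE), adjusted p = 0.0133). Defb26, its neighbour on chromosome 2, was rarer, with 54.2, 199 and 186 CPM in corpus, 0.235, 0.568 and 0.767 in caput and 0.883, 5.25 and 3.23 in cauda (log2 fold change 8.31 ± 0.32 (SE), adjusted p = 8.11e-05 for corpus against caput).

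Defb23, also on chromosome 2, had 1368, 2255 and 1181 CPM in corpus, 159, 302 and 430.4 in caput and 3.84, 7.23 and 1.61 in cauda, which makes it a corpus gene with a tail into caput and almost no cauda signal (log2 fold change -8.57 ± 0.61 (SE), adjusted p = 0.00172 for cauda against corpus). Defb37, Defb38 and Defb39 lie side by side on chromosome 8 and were first described as epididymal genes. Defb37 had 194, 219.6 and 213 CPM in caput, 2175, 3859 and 3140.3 in corpus and 230.2, 954 and 698 in cauda. Defb38 had 4.53, 6.57 and 9.12 CPM in caput, 1471, 2344 and 2106 in corpus and 301, 859 and 601 in cauda. Defb39 had 456, 758 and 849.5 CPM in caput, 1029, 1994 and 1299.8 in corpus and 85.8, 272 and 215 in cauda. All 3 peaked in corpus with no overlap, but Defb38 kept more in cauda than in caput (6.64 on the log2 scale for cauda against caput, adjusted p = 0.000110) and Defb39 more in caput than in cauda (-1.69, adjusted p = 0.00593).

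Defb28 was the leading member of both corpus and cauda by mean, although Defb2 was above it in the P42 cauda library. It had 5659.7, 9382 and 8468 CPM in corpus (mean 7837 ± 1939.7), 1911, 9381 and 7569 CPM in cauda (mean 6287 ± 3897) and only 165, 206 and 318 CPM in caput. Corpus and cauda overlapped and did not differ beyond their spread (log2 fold change -0.40 ± 0.44 (SE), adjusted p = 0.632), while both were above all caput libraries (log2 fold change 5.26 ± 0.52 (SE), adjusted p = 0.000960 for corpus against caput).

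The cauda carried Defb2, Defb11, Defb43, Defb40 and Defb9, nearly all of them shared with the corpus. Defb2, which is induced by bacterial products in airways, was higher in each successive segment, from 208, 203 and 199.8 CPM in caput over 1236, 1474 and 1645 in corpus to 2042, 8503 and 7528 in cauda, with no overlap of segments (log2 fold change 2.95 ± 0.51 (SE), adjusted p = 0.00844 for corpus against caput; log2 fold change 2.03 ± 0.50 (SE), adjusted p = 0.0508 for cauda against corpus, just short of the threshold). Defb9 had the same order, 4.90, 2.81 and 5.03 CPM in caput, 229, 229 and 319 in corpus and 382, 1271 and 1116 in cauda. Defb11 had 30.4, 34.5 and 49.1 CPM in caput, 1388, 2097 and 2068 in corpus and 1234, 4725 and 4119 in cauda. Defb43 had 11.3, 12.6 and 17.5 CPM in caput, 1257, 2069 and 2022 in corpus and 809, 2573 and 2448 in cauda, and Defb40 3.96, 4.96 and 8.24 CPM in caput, 474, 840.1 and 897 in corpus and 571, 1611 and 1283 in cauda. For Defb11, Defb43 and Defb40 the P42 cauda library fell within or below the corpus range and no difference between cauda and corpus passed (log2 0.82, 0.12 and 0.68, adjusted p = 0.249, 0.878 and 0.182). Defb6, a rare gene, was the member that passed as higher in cauda than in corpus (7.59, 23.0 and 23.7 against 0.778, 0.234 and 1.69 CPM; log2 fold change 4.59 ± 0.92 (SE), adjusted p = 0.0266).

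The members best known as antimicrobial peptides of other tissues were, apart from Defb2, minor here. Defb1, made constitutively by many epithelia, had 325, 156 and 281 CPM in caput, 258, 208 and 191 in corpus and 64.0, 239.6 and 190.1 in cauda, so the segments overlapped and no difference passed (adjusted p = 0.830 over segments). Defb14 had 9.48, 16.9 and 19.2 CPM in corpus, 6.34, 7.54 and 11.1 in cauda and 0.604, 0.663 and 0.767 in caput (log2 fold change 4.61 ± 0.26 (SE), adjusted p = 0.000144 for corpus against caput). Defb3 and Defb4, inducible genes of skin and airway, were counted 198 and 64 times in all kept cells. In all, 7 members were under 1 CPM on average in caput, 9 in corpus and 11 in cauda, while 9, 9 and 5 were at 1000 CPM or more.

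The remaining members were of middle or low level. In caput, Defb45 had 554, 751 and 447 CPM, Defb15 447, 959 and 709, Defb12 448, 684 and 667 and Defb21 355, 643 and 531 CPM. All 4 passed as highest in caput and were above every library of the other segments, by 726-fold for Defb45 but 3.15-fold for Defb21, which kept 154, 296 and 36.2 CPM in corpus. Defb29 was shared by caput (166, 273 and 305 CPM) and corpus (216, 414 and 155 CPM), which overlapped, and nearly missing from cauda (1.45, 3.63 and 2.30 CPM). Defb10, 84.4% identical to Defb11 in coding sequence, was highest in cauda at 59.7, 253 and 223 CPM, against 51.0, 57.9 and 55.6 CPM in corpus. The pseudogene Defb44-ps was counted 4765 times, most in corpus (24.3, 35.8 and 28.9 CPM). Defb13, Defb19, Defb36 and Defb34 were caput genes at a mean of 14.7, 12.0, 10.5 and 2.03 CPM. Defb33, Defb35, Defb5 and Defb8 were counted 85, 74, 40 and 10 times.

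**Figure D2:**
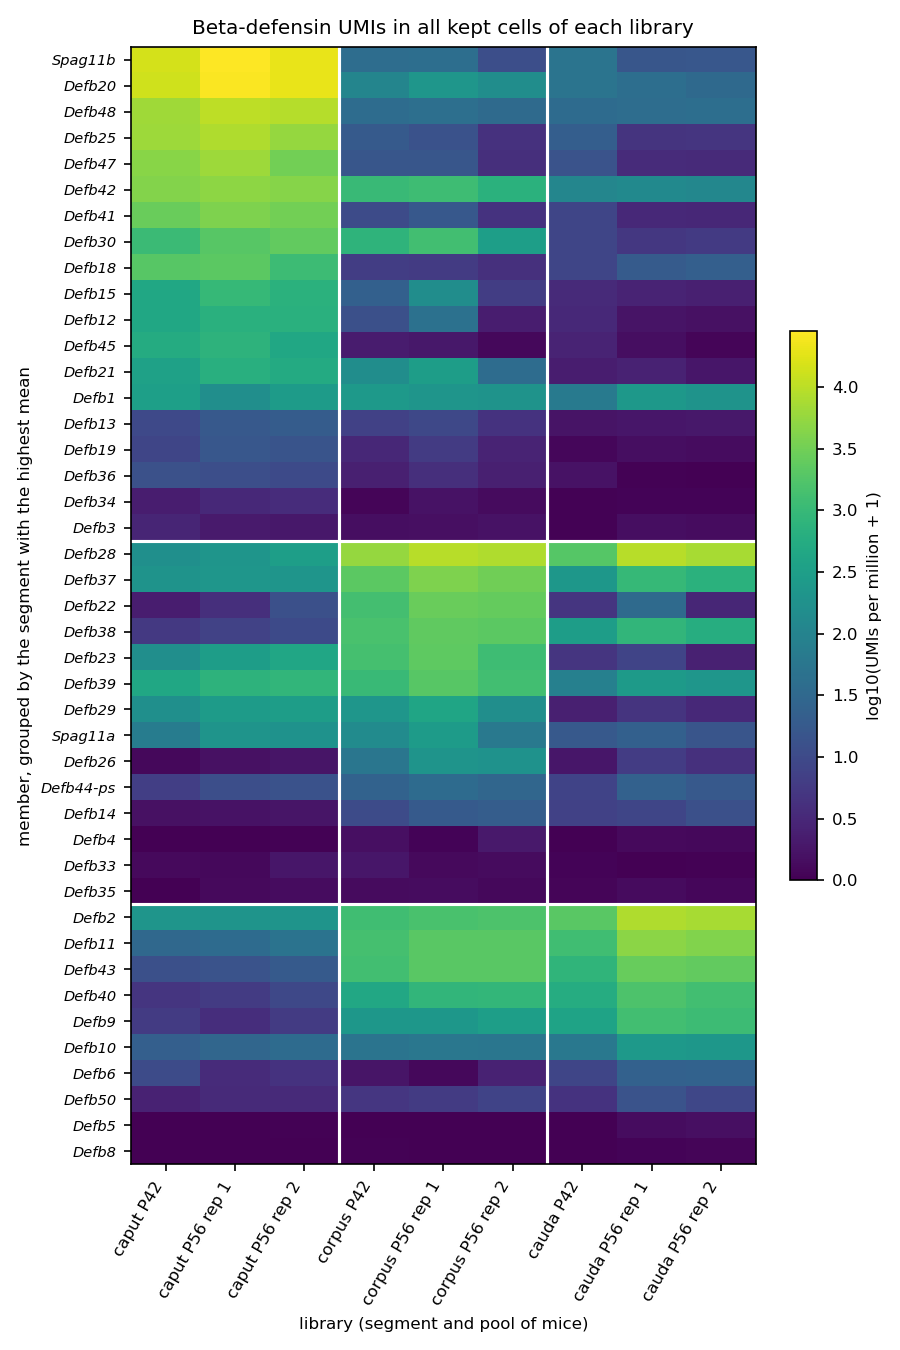
Level of the 43 beta-defensin genes (rows, grouped by the segment with the highest mean) in the 9 libraries (columns), as log10 of CPM plus 1 (colour scale). Caput genes such as Spag11b are far darker in the other segments (10.6 to 51.0 CPM against 14746 or more in caput), whereas the Defb28, Defb2, Defb11 and Defb43 rows are bright in both corpus and cauda.

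Position on the chromosome and peak segment went together only in part. The chromosome 2 cluster held 6 caput and 5 corpus genes and no cauda gene, the chromosome 14 cluster 4 caput genes and 1 cauda gene (Defb43), and the second chromosome 8 cluster 5 cauda genes, among them Defb50, Defb2, Defb10, Defb9 and Defb11 in an unbroken row. Of the 38 neighbouring pairs, 21 had the same peak segment. Of the 3 pairs of genes with coding sequences at least 80% identical, 2 shared a peak segment, and the part of shared reads in this was not tested.

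The segments were also compared within the principal cells. Principal-gated cells, those with epithelial markers and with the markers of every other class below a limit, numbered 21742, from 875 in the P42 cauda library to 3265 in the caput library of P56 replicate 1. Of 38 members tested, 37 differed between segments (19 highest in caput, 10 in corpus, 8 in cauda), beside 35% of all genes tested in these cells (14.4, 10.8 and 9.86% by highest segment), and Defb1 was the one that did not (adjusted p = 0.286). Corpus and caput differed in 32 members (16 higher in corpus, beside 25.8% of genes, 13.2% higher and 12.5% lower), cauda and caput in 36 (14 higher in cauda, beside 26.5%, 13.1% higher and 13.5% lower) and cauda and corpus in 23 (6 higher in cauda, beside 12.9%, 5.79% higher and 7.15% lower). In these cells Defb2 and Defb9 passed as higher in cauda than in corpus (2.25 ± 0.35 and 2.12 ± 0.31, log2 ± SE, adjusted p = 0.00414 and 0.00336), as did Defb11 (1.07, adjusted p = 0.0346). The limits did not require absence, and the medians of clear/narrow, myoid and fibroblast, and erythroid markers in these cells were above 0. Each limit was the larger of a fixed value and a multiple of the library's own median marker share. The limits could therefore differ between libraries. The gates used marker genes only and no beta-defensin, and their limits were set after the marker levels had been seen.

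The share of cells with a UMI was read from cells thinned to 1000 UMIs each, with 0 to 47 shallower principal-gated cells left out per library. Spag11b was found in 98.9, 99.6 and 97.1% of caput principal-gated cells (95% Wilson intervals within 96.3 to 99.8%) and Defb20 in 99.2, 99.7 and 98.1%. Without thinning Defb20 was found in 100% of them in every library. Such a share does not single out the cells that make the message: Defb20 was also found in 95.1, 100 and 96.4% of the 164, 19 and 28 endothelial-gated caput cells, at median depths of 6205, 3986 and 5911 UMIs against 7323, 6363 and 6887 in principal-gated cells. The level differed, with a mean of 18.3, 29.3 and 24.0 Defb20 UMIs per 1000 in principal-gated cells and 6.27, 12.5 and 9.25 in endothelial-gated cells.

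The member counted most differed between principal-gated cells of the same library. In the caput, Spag11b was the leading member in 40.3, 43.6 and 35.8% of cells and Defb20 in 28.4, 39.7 and 37.8%, with Defb30 leading in another 5.47, 7.36 and 14.4%. In the corpus Defb28 led in 70.5, 71.7 and 78.3% of cells. The cauda was split between Defb28 (30.2, 51.1 and 40.3%) and Defb2 (32.7, 36.6 and 42.1%). Between members of near-equal level, such as Defb28 and Defb2 in cauda, counting error alone can split the lead. Its part was not tested. A cell thinned to 1000 UMIs held a median of 9 to 10 different members in caput and corpus and 6 to 8 in cauda.

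Some caput genes were spread evenly over principal cells and others were concentrated in a few. Defb42 had a variance close to its mean (ratio 1.46, 1.26 and 1.31 in thinned cells), and the 10% of cells with the most Defb42 held 19.5, 19.1 and 19.3% of its UMIs. Defb47 was at the other end, with a variance 20.1, 23.1 and 24.6 times its mean and 58.8, 61.5 and 78.0% of its UMIs in the 10% of cells with the most. Defb30 was also uneven, with 70.4, 59.4 and 52.0% in the corresponding cells. Spag11b, at a far higher mean, had 24.6, 23.2 and 25.1% of its UMIs in such cells, with a variance 9.92, 12.0 and 12.7 times its mean.

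Members also varied together from cell to cell. Over the 1626, 3263 and 2341 thinned caput principal-gated cells, Defb48 and Defb25 were the most alike pair of the 36 compared among 9 caput members (Spearman rho 0.76, 0.71 and 0.75), followed by Spag11b and Defb20 (0.54, 0.61 and 0.72). Spag11b also went with Defb18 (0.54, 0.53 and 0.48), and Defb47 with Defb18 (0.46, 0.51 and 0.47), whereas Defb48 and Defb18 ran opposite (-0.41, -0.33 and -0.21). Defb30 was low where Spag11b was high (-0.33, -0.43 and -0.56) and likewise against Defb20 (-0.32, -0.42 and -0.53). In the corpus, Defb37 and Defb22 went together (0.42, 0.48 and 0.37) and Defb38 ran against Defb30 (-0.27, -0.44 and -0.18). In the cauda, Defb2 went with Defb11 (0.61, 0.45 and 0.38) and with Defb28 (0.61, 0.41 and 0.40). These are descriptions across cells of 1 library, which share their mice and chip. Counts were set to 1 depth per cell, at which a very high gene takes counts from the others. The transcripts of Defb2 and of Defb11 each share a run of 83 bases with those of Defb10. The part of either was not tested.

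**Figure D3:**
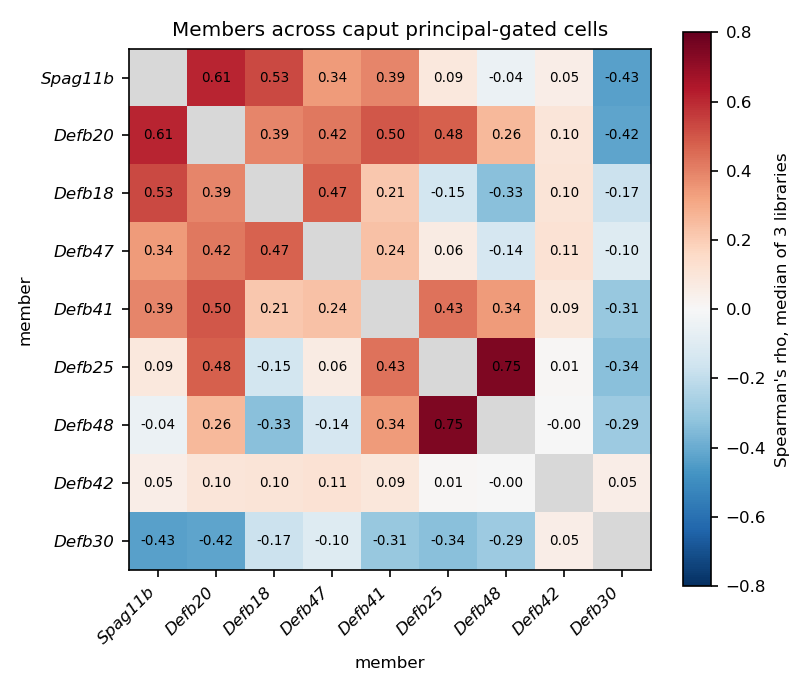
Spearman rho between 9 caput beta-defensin genes over principal-gated caput cells thinned to 1000 UMIs (colour scale from negative to positive; each cell of the grid is the median of the 3 libraries). Defb48 and Defb25 form the strongest positive pair, and the Defb30 row is negative against Spag11b, Defb20 and Defb25.

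The comparison between cell classes asked which cells hold the message. With the library as a block, 30 of 36 members tested differed between clear/narrow-gated and principal-gated caput cells (2 higher and 28 lower in clear/narrow, beside 18.6% of genes, 8.4% higher and 10.2% lower; 17 passed without the block, 15 of them lower), 29 in corpus (2 higher, beside 23.5%, 11.9% higher and 11.6% lower) and 26 in cauda (3 higher, beside 24.5%, 10.2% higher and 14.3% lower). Basal-gated cells differed from principal-gated cells in 30 members in caput (1 higher, beside 24.1%, 11.1% higher and 13% lower), 25 in corpus (1 higher, beside 20%, 10.4% higher and 9.6% lower) and 25 in cauda (2 higher, beside 20.6%, 10.1% higher and 10.5% lower). Most members were therefore lower in both classes, with a median log2 difference of -1.50, -1.81 and -2.03 in clear/narrow-gated cells and -2.35, -1.80 and -1.90 in basal-gated cells (caput, corpus and cauda), where the median of all genes was between -0.11 and -0.01. Too rare to test were Defb3, Defb33, Defb34, Defb35, Defb4, Defb5 and Defb8.

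The leading members were also counted in cell types outside the epithelium, and their levels there were compared with those of principal-gated cells of the same library (ratio of CPM, median of the libraries). Spag11b stood at 0.226 of its principal level in basal-gated caput cells, 0.423 in clear/narrow-gated, 0.337 in endothelial-gated and 0.570 in macrophage-gated cells. Defb20 stood at 0.274, 0.439, 0.391 and 0.597 in the same 4 classes of caput. In cauda, Defb28 stood at 0.328, 0.306, 0.222 and 0.631 and Defb2 at 0.317, 0.290, 0.208 and 0.647, with 2 libraries behind the endothelial values. For each of these 4 genes the macrophage-gated cells, which are not known to secrete them, were above the basal-gated and clear/narrow-gated cells by this median. In cauda the macrophage-gated cells numbered 857 at P42 but only 20 and 14 in the P56 libraries. The share of UMIs from all members in these cells was above that of basal-gated and clear/narrow-gated cells in each P56 cauda library. In the P42 cauda library it was 0.396%, below 0.401% in clear/narrow-gated and 0.576% in basal-gated cells. Whether message was carried between wells was not tested.

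Defb1 went the other way. In principal-gated cells it had 124, 72.0 and 119 CPM in caput, 187, 173 and 132 in corpus and 58.1, 137 and 118 in cauda. In basal-gated cells it had 1003, 914 and 1047 CPM in caput, 595, 534 and 476 in corpus and 610.0, 711 and 629 in cauda. In clear/narrow-gated cells it had 1006, 770.5 and 814 CPM in caput, 853, 644 and 706 in corpus and 455, 593 and 557 in cauda. Every basal and every clear/narrow value was above every principal value, in all 9 libraries. The log2 differences were 2.67 ± 0.14 (SE), 1.34 ± 0.15 and 2.22 ± 0.14 for basal cells (adjusted p = 1.33e-14, 4.04e-08 and 1.83e-12) and 2.61 ± 0.15, 1.87 ± 0.14 and 1.96 ± 0.15 for clear/narrow cells (adjusted p = 1.97e-10, 6.14e-09 and 4.73e-09). Endothelial-gated cells had 51.5 to 108 CPM in caput. Their Defb1 stood at 0.716 of the principal level in caput, 0.255 in corpus and 0.373 in cauda (median of the libraries). Thinned to 1000 UMIs, Defb1 was found in 31.4 to 60.9% of basal-gated and 28.97 to 51.2% of clear/narrow-gated cells, against 6.28 to 18.8% of principal-gated and 0 to 10.7% of endothelial-gated cells, the share of the latter resting on 15 to 164 cells per library. Without thinning the shares were 72.5 to 98.0%, 51.4 to 86.6% and 19.7 to 52.9% in the first 3 classes. The coding sequence printed above is at most 61.6% identical to that of any other member, Defb2.

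Defb50 was a gene of low level that was higher in clear and narrow cells than in principal cells. Clear/narrow-gated cells held 14, 48 and 50 Defb50 UMIs in caput, 42, 49 and 97 in corpus and 28, 200 and 122 in cauda, or 5.55, 24.9 and 20.7 CPM in caput, 23.8, 34.3 and 57.4 in corpus and 45.9, 91.1 and 52.9 in cauda. Principal-gated cells had 0.889, 0.881 and 0.663 CPM in caput, 1.13, 2.66 and 2.66 in corpus and 2.00, 5.63 and 4.37 in cauda, and in each library the clear/narrow value was the higher (log2 fold change 3.93 ± 0.34 (SE), adjusted p = 3.50e-08 in caput; log2 fold change 3.83 ± 0.28 (SE), adjusted p = 2.79e-09 in corpus; log2 fold change 3.45 ± 0.24 (SE), adjusted p = 2.29e-09 in cauda). Basal-gated cells held 0 to 7 UMIs per library, and endothelial-gated cells held 0 in all 8 libraries that had such cells, where 3 counts would have been 2.67 CPM in the largest class and 75.02 CPM in the smallest. After thinning, 0.907 to 8.17% of clear/narrow-gated cells had a Defb50 UMI, against 0.0427 to 0.414% of principal-gated cells, and without thinning 2.72 to 23.2%. Its neighbour Defb1 and the next gene Defb2 lie within the same cluster of chromosome 8, where Defb2 followed the principal cells.

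A few other members passed as higher outside principal cells, all at low counts in cauda. Defb15 had 13, 18 and 21 UMIs in clear/narrow-gated cauda cells (21.3, 8.19 and 9.11 CPM against 3.26, 1.21 and 0.830 CPM in principal-gated cells; log2 fold change 2.56 ± 0.46 (SE), adjusted p = 0.000166). Its transcripts share an unbroken run of up to 39 bases with those of Defb34, and the assignment of reads was not tested. Without the block the adjusted p of Defb15 was 0.107. Defb29 had 6, 26 and 6 UMIs in basal-gated cauda cells (15.3, 12.8 and 4.42 CPM against 1.252, 3.03 and 2.06 CPM; log2 fold change 1.53 ± 0.31 (SE), adjusted p = 0.000247). Without P56 replicate 1, which held 26 of those UMIs, Defb29 did not pass (adjusted p = 0.0521). In caput and corpus, where both genes were far more abundant, neither was higher in these classes.

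**Figure D4:**
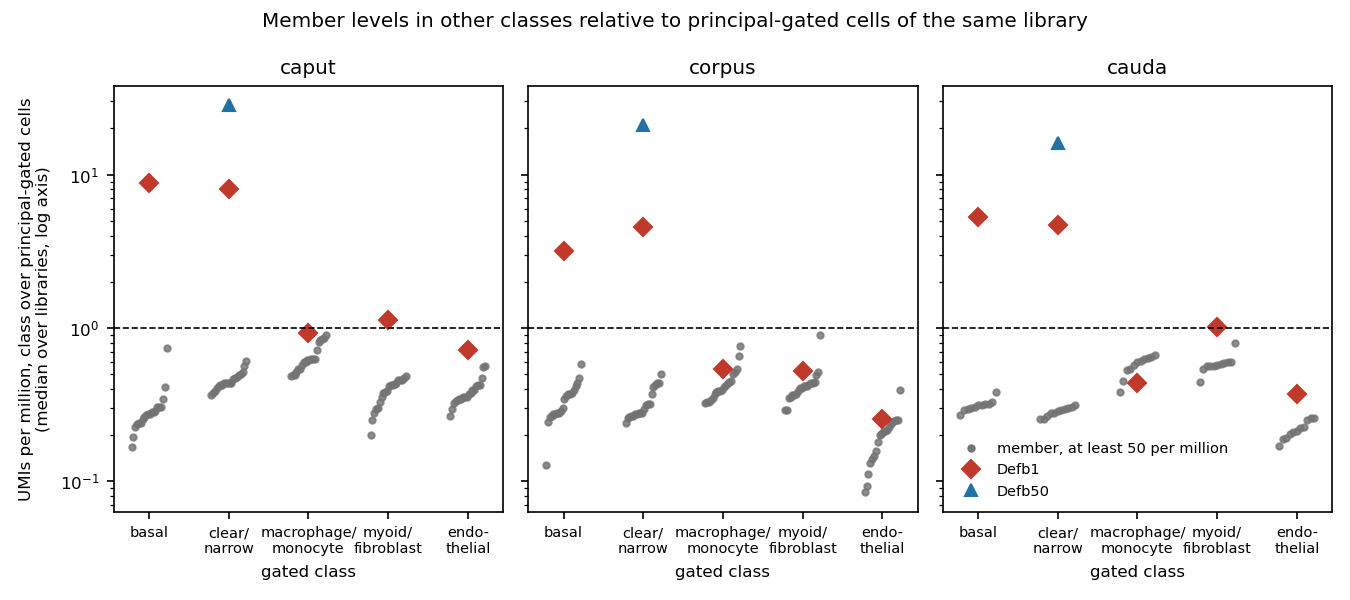
Ratio of a member's CPM in a cell class to that in principal-gated cells of the same library (log axis, median of the libraries), by class and segment. Grey points are members at 50 CPM or more in principal-gated cells, a choice by the denominator that favours ratios below 1, red diamonds are Defb1, at 3.18 to 8.76 in basal and clear/narrow cells, and blue triangles are Defb50 in clear/narrow cells, at 16.2 to 28.3.

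The comparison of ages asked how the genes changed between the first wave of sperm (P42) and the adult duct (P56). There was 1 P42 library per segment, which was assumed to vary like the P56 pairs. In the caput most members were higher at P56 in value, but 1 of 42 passed (Defb44-ps, 5.78, 10.96 and 12.2 CPM, log2 fold change 1.36 ± 0.24 (SE), adjusted p = 0.0275), beside 3.49% of all genes (0.906% higher and 2.59% lower). Values were positive for 39 of the 42, with a median log2 change of 0.98 against 0.01 for all genes. In the same test 18 had an unadjusted p under 0.05, beside 5264 of 21410 genes. The count of calls was unstable, with 8 under DESeq2 and 0 without TMM scaling, which gave medians of 0.63 and -0.33. The erythroid markers stood at 15749 CPM in the P42 caput library against 3083 and 5810.4 CPM at P56, the myoid and fibroblast markers at 2461 against 503 and 597 and the endothelial markers at 329 against 43.6 and 76.9. Principal-gated cells were 38.7% of the P42 library against 67.1 and 47.7%, and the part of these in the values was not tested. Spag11b and Defb20 were both lower at P42 than in either P56 library, at the values given above, but neither difference passed (log2 fold change 1.11 ± 0.61 (SE), adjusted p = 0.301 and log2 fold change 1.19 ± 0.33 (SE), adjusted p = 0.0831). In principal-gated caput cells 0 of 40 members passed in edgeR's quasi-likelihood test, beside 0.935% of genes (0.448% higher and 0.487% lower). An unadjusted p under 0.05 was found for 11 members, beside 3054 of 18293 genes, and 0 passed under DESeq2. There 33 of the 40 values were positive, with a median of 0.66 against 0 for all genes.

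In the corpus 10 of 42 members were higher at P56 and none lower, beside 10.5% of genes (2.66% higher and 7.81% lower). Without P56 replicate 1 the calls were no longer all in that direction. Without TMM scaling 1 of the 42 passed. Defb26 rose most, from 54.2 CPM at P42 to 199 and 186 CPM at P56 (log2 fold change 2.41 ± 0.27 (SE), adjusted p = 0.00277). Defb14 rose from 9.48 to 16.9 and 19.2 CPM (log2 fold change 1.51 ± 0.27 (SE), adjusted p = 0.0104), and Defb40 from 474 to 840.1 and 897 CPM (log2 fold change 1.46 ± 0.26 (SE), adjusted p = 0.0105). Defb20, mainly a caput gene, rose from 106 to 222 and 152 CPM, with log2 1.39, and Defb43 from 1257 to 2069 and 2022 CPM, with log2 1.28. In each of these the P42 library was the lowest of the 3. Within principal-gated corpus cells only Defb26 still passed (88.0 CPM at P42 against 231 and 210.1 CPM; log2 fold change 1.81 ± 0.25 (SE), adjusted p = 0.00776), beside 2.63% of genes (0.924% higher and 1.71% lower). In those cells 6 members passed without P56 replicate 1, 5 of them lower, and 3 without P56 replicate 2. The P42 corpus library had 32.8% principal-gated cells against 63.2 and 69.0% at P56, its erythroid markers reached 41537 CPM against 4663 and 4282, its myoid and fibroblast markers 7428 against 748 and 612 and its macrophage markers 1404 against 264 and 208. The part of these in the all-cell values was not tested.

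The cauda differed most between ages. Over all cells 21 of 42 members passed, 19 higher and 2 lower at P56, beside 32.1% of all genes (12.8% higher and 19.3% lower). Defb28 had 1911 CPM at P42 and 9381 and 7569 CPM at P56 (log2 fold change 2.89 ± 0.27 (SE), adjusted p = 0.000127), Defb26 0.883 against 5.25 and 3.23 CPM (log2 fold change 2.99 ± 0.39 (SE), adjusted p = 0.000532) and Defb10 59.7 against 253 and 223 CPM (log2 fold change 2.73 ± 0.18 (SE), adjusted p = 3.86e-05). Defb2 and Defb11 had P56 levels more than 3-fold those of P42 in both pools, with log2 2.71 and 2.58. In each of these genes the P42 library was far below both P56 libraries. The calls with the largest fitted folds rested on few molecules: Defb5 had 0 UMIs at P42 and 15 and 21 at P56, at least 3.01-fold higher against a floor of 3 counts in the P42 library. Defb3 had 1 UMI at P42 and 17 and 16 at P56 (ratio 8.28, 95% counting interval 1.39 to 337), and Defb36 had 12 at P42 against 2 and 0 (23.9-fold higher at P42, interval 5.32 to 219.9).

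The P42 cauda library also held fewer epithelial cells. All 7 epithelial markers were higher at P56 over all cells, by log2 1.72 (Cdh1) to 3.21 (Krt8), and principal-gated cells were 19.1% of the P42 library against 59.96 and 64.4% at P56. The part of these values in the rise of the members over all cells was not tested.

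Within principal-gated cauda cells 13 of 40 members passed, 12 higher and 1 lower at P56, beside 18.7% of all genes (7.26% higher and 11.4% lower). Defb50 had 2.00, 5.63 and 4.37 CPM (log2 fold change 2.11 ± 0.46 (SE), adjusted p = 0.00805). Defb1 had 58.1, 137 and 118 CPM (log2 fold change 1.94 ± 0.29 (SE), adjusted p = 0.00123), and Defb18 10.8, 21.8 and 25.6 CPM (log2 fold change 1.94 ± 0.39 (SE), adjusted p = 0.00546). Both P56 values were above the P42 value for each of the 3, and Defb50 and Defb1 were among the members that were higher in clear/narrow cells. The leading genes moved less: Defb28 had 5489.8, 11177 and 8638 CPM (log2 fold change 1.66 ± 0.30 (SE), adjusted p = 0.00304) and Defb2 6085, 10196 and 8665 CPM (log2 fold change 1.44 ± 0.23 (SE), adjusted p = 0.00164). Defb25, a caput gene, was higher at P42, with 20.5, 3.42 and 3.72 CPM (log2 fold change -1.72 ± 0.53 (SE), adjusted p = 0.0367). Over all cauda cells Spag11b (51.0, 14.3 and 15.2 CPM), Defb47 (12.8, 2.48 and 2.37) and Defb41 (7.64, 2.29 and 2.13) were also highest at P42. Defb48, Defb42 and Defb18, also caput genes, were lowest at P42. The part of the barcodes shared between P42 libraries was not tested. In the principal-gated cauda cells 5 of 7 epithelial markers were higher at P56, by log2 1.18 (Cldn3) to 1.82 (Krt8). Col1a1 and Col3a1 of the myoid and fibroblast list were lower (-6.35 and -5.54), so the gated cells of the 2 ages differed in more than their beta-defensins. All of these are marker genes of the gate, whose limits could differ between libraries, so their values are not independent of the gate. The part of the gate and of these differences in the member values was not tested.

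With library sizes taken as they were in place of TMM scaling, 7 members passed in principal-gated cauda cells, 3 higher (Defb50 1.31, Defb18 1.14 and Defb1 1.13 on the log2 scale) and 4 lower, among them Defb41 (-2.43) and Spag11b (-2.11), and the median of all genes moved from 0.04 to -0.72. Defb28 (0.85) and Defb2 (0.63) were then below the fold change that a call required. Over all cauda cells that scaling gave 18 higher and 6 lower in place of 19 and 2. The median of the members in principal-gated cauda cells was 0.89 under TMM and 0.08 without it. A stricter gate left 7 of the 13 calls in number, and Defb25, Defb26 and Defb50 were among those lost.

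The change with age differed between segments for 9 of 42 members over all cells (beside 14.1% of genes) and for 5 of 40 in principal-gated cells (beside 10.8%), by the interaction of age and segment in a model without the pool. With the pool as a block, a fit added after the data were seen, 18 members passed over all cells (beside 23.3% of genes) and 10 in principal-gated cells (beside 16.5%), those of the first model among them. In principal-gated cells the 5 were Defb1 (log2 -0.07 in caput, 0.19 in corpus and 1.94 in cauda, adjusted p = 0.0193), Defb2 (0.00, 0.31 and 1.44, adjusted p = 0.0340), Defb10 (0.52, 0.12 and 1.33, adjusted p = 0.0419), Defb18 (-0.23, -0.05 and 1.94, adjusted p = 0.0419) and Defb6 (-1.95, 1.26 and 0.999, adjusted p = 0.0403). For the first 4 the cauda value was the largest. The number depended on the libraries, from 0 without the cauda library of P56 replicate 1 to 15 without the corpus library of P56 replicate 1.

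**Figure D5:**
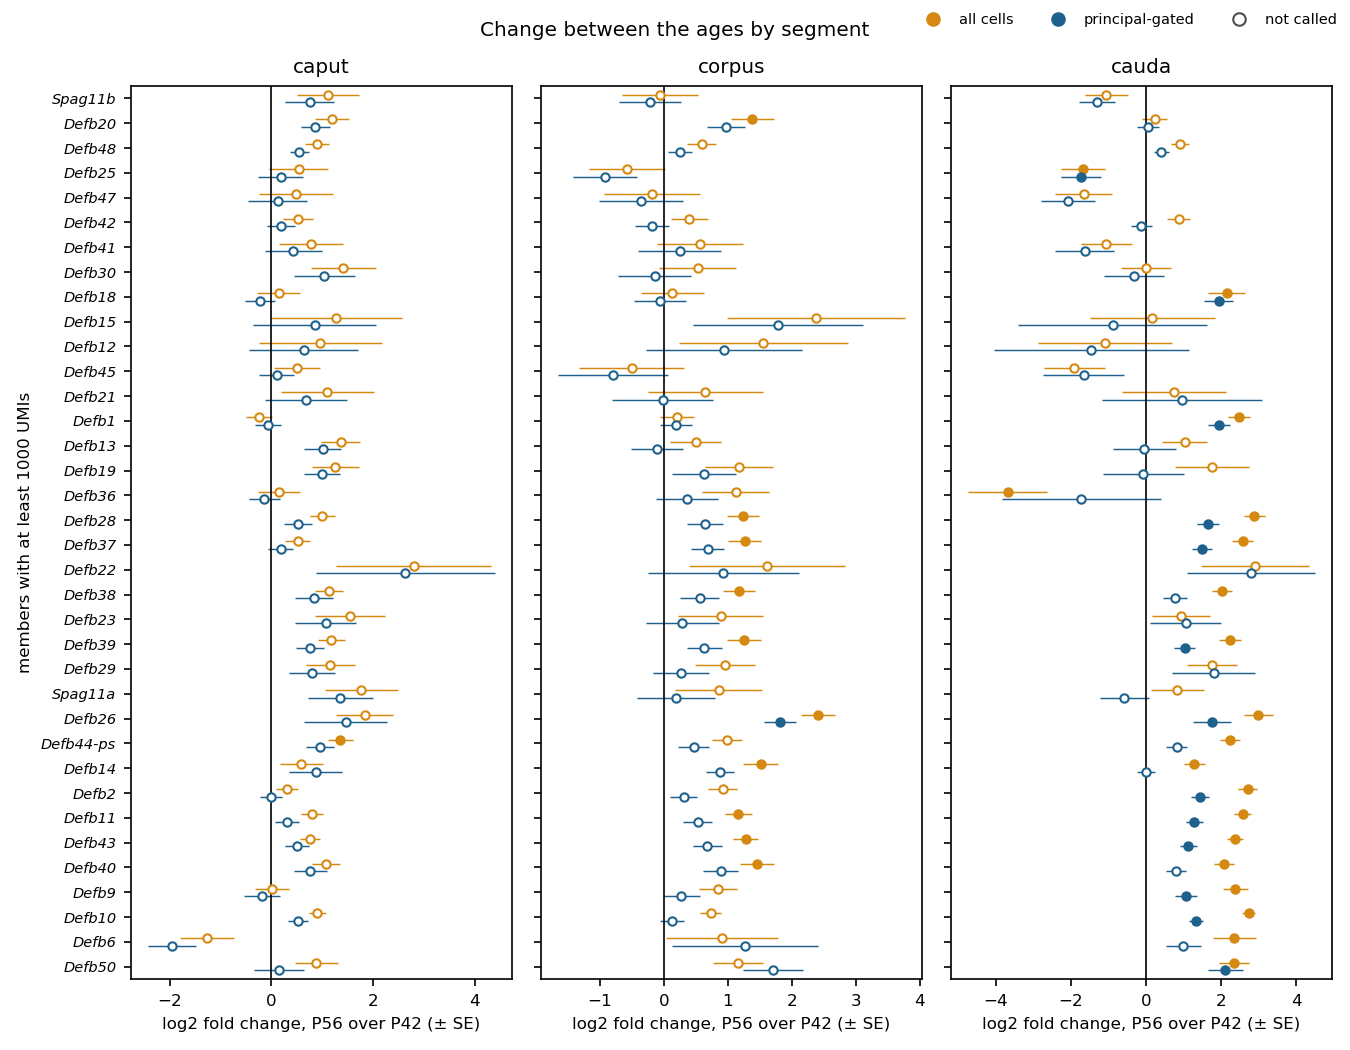
Change from P42 to P56 (log2 fold change ± SE from edgeR's model) of members with 1000 or more UMIs, by segment, over all cells (orange) and in principal-gated cells (blue); open symbols did not pass. Most caput values lie above 0 (median 0.98 over all cells and 0.66 in principal-gated cells, over all members tested) with only Defb44-ps passing, and most all-cell values in cauda lie above their principal-gated values, as for Defb28 (2.89 against 1.66).

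Other antimicrobial proteins of the duct were divided between segments as well. Of 13 listed genes outside the family, 10 were tested over all cells and 6 differed between segments (beside 24.8% of all genes), namely Ltf (lactoferrin, log2 9.30 between highest and lowest segment), S100a8 (5.08) and Adm (1.80) with their highest mean in cauda, Bpi (a lipopolysaccharide-binding protein, 7.15) and Lcn2 (an iron-siderophore binder, 4.66) in caput and Slpi (1.65) in corpus. In principal-gated cells 6 of 10 passed, beside 35%. At P56 in cauda, 6 of 11 differed over all cells, beside 32.1%. Lcn2 (2.55), Bpi (2.54) and Ltf (2.47) were higher, beside the epithelial markers given above, which were also higher. Lyz1 (-6.80), Lyz2 (-4.42) and Slpi (-1.53) were lower, beside the macrophage markers given above. Of 5 receptors reported for beta-defensins (Ccr6, Ccr2, Tlr1, Tlr2 and Tlr4), 4 were tested between segments over all cells and 0 passed in edgeR's test. In cauda 4 of the 5 receptors were lower at P56, again with the macrophage markers.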

How the data were processed

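The authors trimmed reads with fastp, took cell barcodes and UMIs with UMI-tools, aligned to GRCm38 with STAR 2.7.3a and counted exons with featureCounts. The strand setting was not given in the sources used here. They deposited 1 table of raw UMI counts per gene and cell, whole numbers with no normalization, and all 9 libraries were read from it by the library names in the barcodes. The members, gene lists and gates were chosen with earlier results of these data known.

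Cells with 300 to 4000 detected genes, at most 20000 UMIs and under 50% mitochondrial UMIs were kept. The study's methods state the limits on detected genes, and the other limits follow an earlier processing of these data. Cells were assigned to classes by marker UMIs, cells with markers of several classes were left out as possible doublets, and no doublet caller was run. Principal-gated cells had epithelial markers, and each other class's markers were below a limit, not absent. A limit was the larger of a fixed value and a multiple of the library's median marker share, so it could differ between libraries. UMIs were summed per library, or per library and class, and tested with edgeR 4.0.16 in R 4.3.3 (filterByExpr, TMM, quasi-likelihood F test, Benjamini-Hochberg adjustment over all genes tested). Calls needed a log2 fold change of 1 or more in size together with an adjusted p below 0.05; the interaction of age and segment had no fold minimum. Each pool of mice gave all 3 of its segments, and the pool was therefore the block in the comparison of segments. Deviations from segment means correlated at 0.144 to 0.734 in 9 of 9 pairs of libraries from the same pool, and over 0.1 in 4 of 18 pairs from different pools. Those 4 were pairs of the P56 replicates (0.314 to 0.526), and all pairs of P42 with P56 were negative. The correlations therefore do not separate a shared pool from a shared age. Ages were compared in 1 model with a mean per segment and age and, for the interaction, also with the pool as a block, classes with the library as a block. Share intervals are 95% Wilson intervals, and all intervals and floors cover counting error only. Named genes were the 8 highest per segment, the called genes of each age comparison (up to 5 by fold), those higher in clear/narrow or basal cells, and Defb1, Defb2, Defb3, Defb4, Defb14, Defb41, Spag11a and Spag11b; other genes were named after their values were seen. DESeq2 1.42.0, no filter on low counts, no TMM factors, no mitochondrial genes, all barcodes, a stricter gate, no block and leaving out pools or libraries were the alternatives. The test script was tested on simulated counts. 1 gene of the fixed lists and a search of promoter sequences are not reported here.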

Additional observations from a re-analysis of the deposited data

Results flagged for a closer look

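Over all cells, 9 members of 42 changed with age to a different extent in the 3 segments, beside 14.1% of all genes, by the interaction of age and segment (edgeR, quasi-likelihood F test, p adjusted by Benjamini-Hochberg). Defb10 had the lowest adjusted p, 0.00535, with log2 fold changes from P42 to P56 of 0.90 in caput, 0.73 in corpus and 2.73 in cauda. Defb2 followed (adjusted p = 0.00772), with 0.31, 0.92 and 2.71, and then Defb1 (adjusted p = 0.00878), with -0.25, 0.21 and 2.48. The other 6 were Defb11 (adjusted p = 0.0142; 0.80, 1.17 and 2.58), Defb43 (0.0163; 0.75, 1.28 and 2.37), Defb28 (0.0178; 1.001, 1.24 and 2.89), Defb37 (0.0183; 0.52, 1.26 and 2.58), Defb9 (0.0248; 0.02, 0.85 and 2.38) and Defb6 (0.0406; -1.26, 0.91 and 2.36). In each the cauda value was the largest of the 3, and all 7 epithelial markers likewise differed between segments in this test. With the pool as a block the 9 were among 18 members that passed, beside 23.3% of all genes. The part of the low share of epithelial cells in the P42 cauda library was not tested.

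In principal-gated cells the same test passed for 5 of 40 members, beside 10.8% of all genes, which is near their share of 12.5%. These were Defb1 (adjusted p = 0.0193), Defb2 (0.0340), Defb6 (0.0403), Defb10 (0.0419) and Defb18 (0.0419), of which Defb18 had not passed over all cells. Its log2 fold changes were -0.23, -0.05 and 1.94, those of Defb1 -0.07, 0.19 and 1.94, those of Defb2 0.00, 0.31 and 1.44 and those of Defb10 0.52, 0.12 and 1.33. Defb6 was the exception to the cauda order, with -1.95, 1.26 and 0.999. With the pool as a block the 5 were among 10 that passed, beside 16.5% of all genes. All 7 epithelial markers, which are themselves used in the gate, passed in these cells too. The part of this was not tested.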

How the results depend on the processing

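Of 153 values recomputed for the counts of calls and the shares, 121 stayed within 1.5 times the main count or within the spread between pools, and 32 did not; of 1984 for single genes, 1864 kept their side of the threshold, 77 lost it, 43 gained it and 0 reversed. The counts between segments and between classes moved least and those between ages most. Over all cells in caput, where 1 member passed, DESeq2 gave 8, no filter on low counts 10, leaving out mitochondrial genes 2, and library sizes without TMM factors and all deposited barcodes 0 each. Without the filter the interaction gave 16 over all cells and 16 in principal-gated cells, and the age comparison in principal-gated cells 5 in caput and 4 in corpus. Library sizes without TMM factors, an alternative added after the data were seen, gave 1 over all corpus cells in place of 10, and in principal-gated cells 1 in caput (lower), 2 in corpus (1 lower) and 7 in cauda (3 higher and 4 lower, in place of 12 and 1), where the balance of direction turned. That scaling set the median log2 change of all genes to between -0.32 and -0.80 for the ages and between 0.29 and 0.46 for the classes. The stricter gate gave 7 in principal-gated cauda cells and 2 for the interaction. The cause was not tested.

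With no replicate block, 17 members in place of 30 passed between clear/narrow-gated and principal-gated caput cells. A replicate block of pools, added after the data were seen, gave 18 in place of 9 for the interaction over all cells and 10 in place of 5 in principal-gated cells, with 2 residual degrees of freedom. The other counts that could be fitted both ways moved by less. Without the block, clear/narrow-gated cells gave 23 in place of 29 in corpus and 20 in place of 26 in cauda. Basal-gated cells gave 29, 22 and 18 in place of 30, 25 and 25 (caput, corpus and cauda), and segments over all cells 35 in place of 37. The ages within a segment differ between pools and could not be blocked.

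Leaving out 1 pool or library at a time gave 24 to 38 members between segments over all cells (24 without P56 replicate 1) and 34 to 38 in principal-gated cells. Shares over all genes were not taken for the fits with a pool or library left out. The ages gave 3 to 3 in caput, 10 to 14 in corpus and 19 to 20 in cauda over all cells, and 0, 3 to 6 and 9 to 16 in principal-gated cells. For the corpus, 6 passed in principal-gated cells without P56 replicate 1 (5 lower, where the 1 call with all libraries was higher) and 3 without P56 replicate 2. The interaction gave 5 to 17 over all cells (5 without cauda P56 replicate 1, 16 and 17 without either corpus P56 library) and 0 to 15 in principal-gated cells (0 and 3 without cauda P56 replicate 1 and 2, 2 without either caput P56 library, 15 and 11 without corpus P56 replicate 1 and 2). The classes gave 25 to 31, 28 to 30 and 22 to 28 (clear/narrow) and 28 to 30, 24 to 26 and 20 to 25 (basal), and the shares of UMIs 6.71 to 8.70%, 2.41 to 3.08% and 1.72 to 2.87%.

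With 1 P42 library per segment, age and pool cannot be told apart. Depth limits the rare genes: Defb8 was counted 10 times, Defb5 40 times and Defb4 64 times in all kept cells.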
